A study of Caenorhabditis elegans with 2 samples.

Results

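The 9 genes described here encode the cyclins, kinases and inhibitor that control the G1 phase of the Caenorhabditis elegans cell cycle, together with the cdc-25 phosphatases. They are cdk-4, cyd-1, cdk-2, cye-1, cki-1, cdc-25.1, cdc-25.2, cdc-25.3 and cdc-25.4, of 19985 annotated protein-coding genes. They were selected on peaks already seen in these lists and by their known roles, so every signal and rank below is a description without a test. For each gene, every peak was taken whose summit lay between 1000 bp upstream of the annotated gene start and the gene end, called the gene window.

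The study mapped the genomic positions of the zinc finger protein ZTF-29 by chromatin immunoprecipitation with sequencing (ChIP-seq). The samples were whole embryos of strain RW12283, in which CRISPR placed a TY1::EGFP::3xFLAG tag in the endogenous ztf-29 gene on chromosome III, and the tagged protein was pulled down with an antibody to GFP. All material was mid-stage embryos obtained by egg bleaching, with a labelled age of 0 hour, and the sheared chromatin had a labelled size range of 200 to 800 bp. The 2 biological replicates form 1 group, an untagged or input sample was not analysed here, and whole embryos do not show in which cells a protein was bound.

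The cell cycle is driven by kinases that act only with a cyclin partner. In G1, cyclin D with CDK-4 and then cyclin E with CDK-2 move a cell toward DNA replication, and inhibitors of the CIP/KIP family hold it back. CDC25 phosphatases remove inhibitory phosphates from cyclin-dependent kinases, and in worm embryos the timing of these divisions differs between lineages.

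Each of the 2 replicates had a ranked list of candidate peaks and a listed set taken from it, and the series had a conservative and a full pair made from both replicates together. The conservative list held 814 listed peaks of 54900 candidates, the full list 1114 of 54286, replicate 1 466 of 38705 and replicate 2 802 of 43139. A listed peak had an irreproducible discovery rate (IDR) of at most 0.01. That is 2 or more on the minus log10 scale used in the lists, where 5 is the highest value. Not every candidate within this limit was listed. In the conservative pair 126 such candidates were left unlisted, and the highest signal was 3069.7 among candidates and 619.3 among listed peaks. The IDR is the expected share of peaks ranked at least as high that would not recur between the sets of peaks compared. The lists of a single replicate derive from the alignments of that replicate alone. Their IDR therefore does not measure agreement between the 2 replicates. The signal of a peak is a value that the authors deposited on an unstated scale, and read depth is unknown, so signals rank peaks only within a list. The listed peaks had a median signal of 101.7 in the conservative list, 89.2 in the full list, 52.4 in replicate 1 and 68.7 in replicate 2.

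Listed peaks were found at 4 of the 9 genes in the conservative list, namely cdk-4, cyd-1, cye-1 and cdc-25.2, where 3.4% of all protein-coding genes had one. In the full list 2 of the 9 had one, cye-1 and cdc-25.2, against 4.45% of all genes. Replicate 1 listed a peak at 1 of the 9, cye-1, against 2.12%, and replicate 2 at 2 of the 9, cyd-1 and cye-1, against 3.24%. Since the genes were chosen on these lists, nothing is read from these shares. Of the 4 genes, cye-1 was the only one listed in all 4 lists.

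The 4 genes differed in where the summit lay. A promoter window, set around each annotated transcript start of a gene and reaching from 500 bp before it to 100 bp after it, held a listed conservative summit at 2 of the 9 genes, cdk-4 and cdc-25.2, against 1.65% of all protein-coding genes. The summit at cye-1 lay in an intron at a tRNA gene, which 1 of the 9 genes and 0.455% of all genes showed. The listed summits at cyd-1 lay in an intron with no small RNA gene, far from both of its annotated starts. Long genes give more room to a peak, and cyd-1 and cdc-25.2, which each had one, are the only 2 of the 9 with a length of at least 10 kb. Of the 998 protein-coding genes of that length, 10.5% had a listed conservative peak in the gene window.

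**Figure D1:**
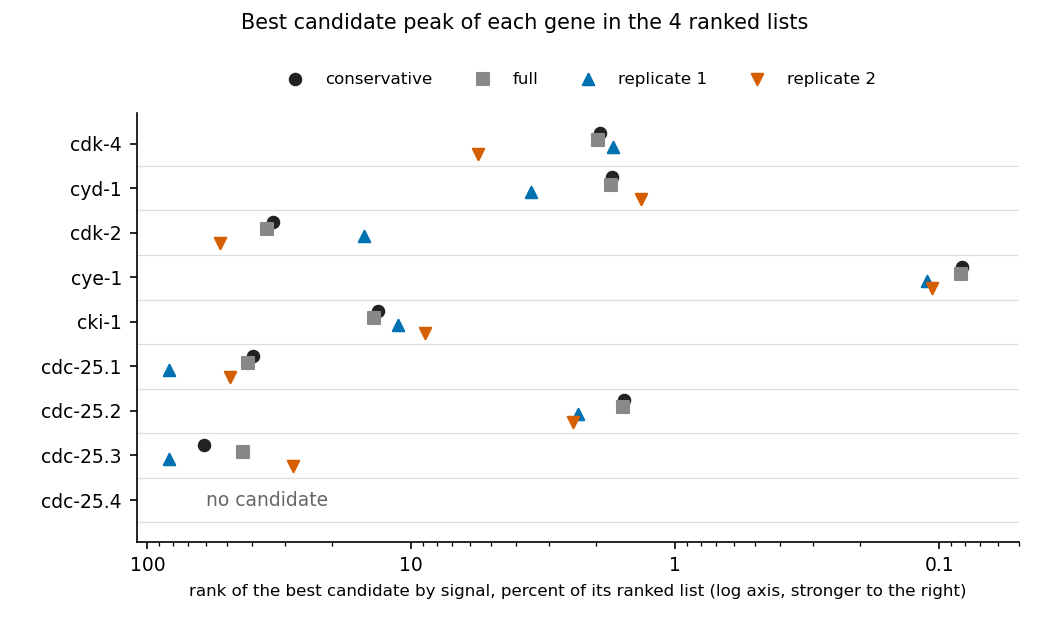
Rank by signal of the strongest candidate in each gene window, as a percent of the ranked list on a log axis, for the conservative list, the full list and each replicate. cye-1 stands at 0.0820% to 0.111% in all 4 lists, cdk-4, cyd-1 and cdc-25.2 between 1.35% and 5.59%, the other genes with a candidate at 8.85% or weaker, and cdc-25.4 has no candidate.

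Among the genes of cyclin D and its kinase, cdk-4 had its peak at the promoter and cyd-1 had its peaks deep in the gene body. The gene cdk-4 (WBGene00000406) encodes the kinase partner of cyclin D and spans chromosome X from 13515856 to 13518911 in ce11, on the reverse strand. Its only annotated transcript has 5 exons. The listed conservative peak ran from 13519005 to 13519280, with its summit at -232 bp from the gene start. Its sequence is given because it is the only listed peak of the 9 genes that lies directly upstream of a gene's own first annotated start. It is the reverse strand of chrX:13519005-13519280, 5′ to 3′ toward the gene, from RefSeq's WBcel235 (ce11) assembly, and capitals mark 21 bases centred on the summit.
cdk-4 promoter peak: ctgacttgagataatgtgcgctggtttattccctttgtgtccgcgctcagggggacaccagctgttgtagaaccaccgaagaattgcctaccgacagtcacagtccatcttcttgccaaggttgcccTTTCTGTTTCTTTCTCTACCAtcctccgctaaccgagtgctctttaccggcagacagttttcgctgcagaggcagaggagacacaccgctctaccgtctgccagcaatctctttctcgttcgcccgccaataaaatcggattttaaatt

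The cdk-4 peak had a signal of 72.9 in the conservative list, which was rank 718 of the 814 listed peaks and rank 1061 of the 54900 candidates. The candidate of replicate 1 at this place had a signal of 37.5 (rank 666) and an IDR of 0.211. That of replicate 2 had a signal of 37.6 (rank 2410) and an IDR of 0.622. The site was therefore among the strongest 1.72% of candidates in replicate 1 and 5.59% in replicate 2, with summits at -228 bp and -260 bp, and neither replicate listed it. The IDR was 0.00809 in the conservative list, inside the limit, and 0.0631 in the full list, outside it, although the pooled signal is the same in both. Among the 273 conservative peaks in a promoter window, with a median signal of 96.3, it ranked 241.

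The window of cdk-4 held 4 conservative candidates in all. The other 3 were weak, with signals of 24.5, 13.7 and 4.19 at 2556, 1285 and 1083 bp inside the gene, all in introns. The summit also lay near a divergent neighbour, since the start of F18H3.1 (WBGene00008939), on the forward strand, was 520 bp away, farther than the start of cdk-4. Within 100 bp of the summit the GC content was 54.7%, which was above that of 88.8% of the listed conservative peaks.

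cyd-1 (WBGene00000870) encodes cyclin D, the partner that CDK-4 needs. It spans chromosome II from 12980591 to 12993117, on the forward strand, with 1 transcript that starts at the gene start and another that starts 7632 bp into the gene. The conservative list held 2 overlapping peaks in its window, both in intron 3 of 4 (2656 bp) of the shorter transcript, with summits 9590 bp and 9791 bp from the gene start. The sequence of the stronger of these is shown with that of a site that replicate 2 alone listed, 10891 bp from the gene start. They are the forward strand of chrII:12990043-12990318 and of chrII:12991357-12991606, from RefSeq's WBcel235, and capitals mark 21 bases centred on each summit.
cyd-1 conservative peak: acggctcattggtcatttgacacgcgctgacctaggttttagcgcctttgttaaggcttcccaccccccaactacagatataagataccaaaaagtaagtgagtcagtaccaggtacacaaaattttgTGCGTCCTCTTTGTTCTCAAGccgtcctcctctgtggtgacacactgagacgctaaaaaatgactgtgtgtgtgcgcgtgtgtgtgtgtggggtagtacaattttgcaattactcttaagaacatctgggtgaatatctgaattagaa
cyd-1 replicate 2 peak: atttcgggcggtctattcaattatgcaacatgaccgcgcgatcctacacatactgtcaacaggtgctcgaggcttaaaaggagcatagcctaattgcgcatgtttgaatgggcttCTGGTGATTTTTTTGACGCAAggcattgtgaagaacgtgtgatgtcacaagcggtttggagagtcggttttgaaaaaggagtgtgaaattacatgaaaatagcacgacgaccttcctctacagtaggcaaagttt

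The stronger conservative peak of cyd-1 had a signal of 56.4, which was rank 781 of 814 listed peaks and 2208 of the candidates, with an IDR of 0.00713. The second, whose signal was 7.20 (rank 808 of 814), overlapped the first and had an IDR of 0.00716. In each replicate a single candidate overlapped both, so the pair counts as 1 site. Its signal was 28.9 in replicate 1 (rank 1366, IDR 0.0616) and 44.8 in replicate 2 (rank 1363, IDR 0.202), and neither replicate listed it. The full list left it out with an IDR of 0.0166. Both peaks were weak for their kind, at ranks 120 and 125 of the 127 conservative intronic peaks away from promoters and small RNA genes, whose median signal was 92.01.

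The strongest pooled candidate of cyd-1 was at a different place, and 1 replicate carried it. At 10894 bp from the gene start the pooled signal was 77.1 (rank 955), above that of the listed peak, but the IDR was 0.657 in the conservative list and 0.0564 in the full list. Replicate 2 listed this site with a signal of 64.4 (rank 466 of its 802 listed peaks) and an IDR of 0.00200. Replicate 1 had no candidate overlapping it. At the first start of cyd-1 there was no listed peak in any list, and the nearest conservative candidates were weak, at 403 bp with a signal of 12.1 (rank 47724) and at -533 bp with 21.2 (rank 36453). Replicate 1 had a candidate at -545 bp with a signal of 11.6. The conservative candidate nearest the second start, 20 bp after it, was also weak and unlisted, with a signal of 20.1 (rank 38292). The stronger listed conservative summit lay 1958 bp after that second start. The nearest start of another protein-coding gene, hphd-1, lay 6390 bp from the listed summit.

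**Figure D2:**
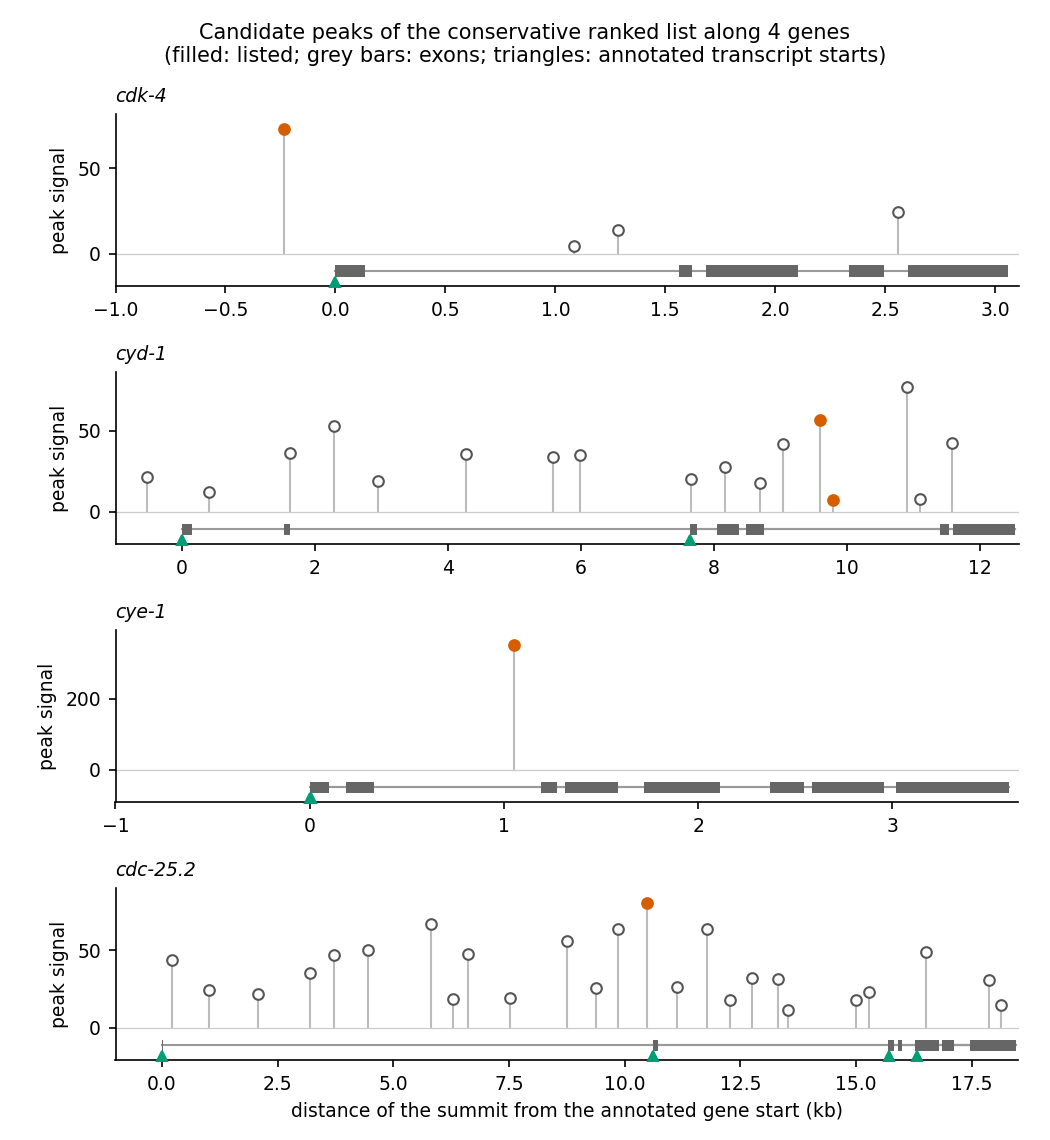
Signal of every conservative candidate (vertical axis, the authors' scale) by the distance of its summit from the annotated gene start in kb, for cdk-4, cyd-1, cye-1 and cdc-25.2, with listed peaks filled, exons as grey bars and transcript starts as triangles. cdk-4 and cye-1 show a single tall candidate, at -232 bp and 1053 bp, while cyd-1 and cdc-25.2 show 17 and 25 candidates spread along the gene.

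Of the genes of cyclin E and its kinase, cye-1 had the strongest peak of the 9 genes and cdk-2 had no listed peak. The gene cye-1 (WBGene00000871) encodes cyclin E and spans chromosome I from 6780799 to 6784397, on the forward strand, with 2 transcripts whose starts differ by 7 bp. Its peak ran from 6781757 to 6781931, and the summit at 6781852 lay 1053 bp from the gene start, in intron 2 of 7 (859 bp). This summit was inside C37A2.t1 (WBGene00022955), a tRNA-Cys gene of 72 bp from 6781803 to 6781874 on the same strand, 49 bp from its 5′ end. Transfer RNA genes are transcribed by RNA polymerase III from control elements inside the gene. No other of the 9 genes contained an annotated gene of a tRNA, a snoRNA or a snRNA.

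The cye-1 peak had a signal of 351.9 in the conservative list, rank 11 of 814 listed peaks and 45 of 54900 candidates. Replicate 1 gave it 145.5 (rank 43) and replicate 2 gave it 205.6 (rank 46). The minus log10 IDR was 5, the highest value the lists hold, in all 4 lists. The site was thus at nearly the same rank in both replicates, with summits 1049 bp and 1053 bp from the gene start. Its signal ranked 3 among the 189 conservative peaks at a tRNA gene, with a median of 126.5, and 2 among the 92 of them in an intron. At 175 bp it was narrower than the 276 bp that is the median of the listed conservative peaks.

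The promoter of cye-1 showed no conservative candidate at all. Its window held a single candidate in the conservative, full and replicate 2 lists, the tRNA site. Replicate 1 had 1 more, at -573 bp, with a signal of 17.1, rank 10251 and an IDR of 0.814. The nearest start of another protein-coding gene, pqn-21, of a prion-like glutamine and asparagine rich family, was 1701 bp from the summit.

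At the listed sites of cdk-4, cyd-1 and cdc-25.2 the 51 bases around the summit occurred only 1 time in the genome. Those around the cye-1 summit were not unique in the genome, and reads that fall wholly within them cannot be assigned to a single place. They occurred 11 times, each time inside a tRNA-Cys gene, of 13 such genes in the annotation. A listed conservative peak stood at 4 of the 11 copies. The copy in cye-1 had the highest signal, 351.9, followed by F42D1.t1 with 154.3, F32B4.t1 with 147.05 and F53F8.t1 with 80.6. Replicate 1 and replicate 2 each listed 3 of the 11. How reads that match several copies were placed by the authors' aligner is not stated in the labels or the deposited readme, and its part in these values was not tested.

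cdk-2 (WBGene00019362) encodes the kinase partner of cyclin E and spans chromosome I from 3410013 to 3416368, on the forward strand. It had 7 conservative candidates, all weak, with signals from 8.43 to 31.04, and none was listed in any list. The strongest, 4672 bp from the gene start in intron 5 of 6, ranked 18405 (33.5% of the list). The candidate nearest the start, at -43 bp, had a signal of 20.9 (rank 36842). Of the 7 candidates, 0 were overlapped by a candidate in both replicates, and the lowest conservative IDR in the window was 0.747. In replicate 1 the best candidate had a signal of 19.8 at 1786 bp, and in replicate 2 it had 19.4 at 4657 bp, so the replicates had their strongest candidate at different places.

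cki-1 (WBGene00000516), the CIP/KIP inhibitor that holds worm cells in G1, is a short gene of 866 bp on chromosome II, from 7811240 to 7812105 on the forward strand. Its strongest conservative candidate, with a signal of 41.1 (rank 7322) and an IDR of 0.0693, had its summit 448 bp into the gene, in a coding exon. Replicate 1 had a candidate there of 21.4 (rank 4359) and replicate 2 one of 33.3 (rank 3816). The other conservative candidates were at -200 bp with a signal of 28.4 and at 6 bp with 12.8. All 3 conservative candidates of cki-1 were overlapped by a candidate in both replicates, and none was listed. Those at -200 bp and 6 bp overlapped each other. In each replicate a single candidate overlapped both, so that pair counts as a single site. With 1.61 candidates per kb of gene window it had the highest density of the 9 genes, against a median of 0.493 over all protein-coding genes. That density rests on 3 candidates in a short window, with both of the overlapping pair counted.

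Among the genes of CDC-25 phosphatases, cdc-25.2 alone had a listed peak. cdc-25.2 (WBGene00000387), known in worms for oocyte maturation and for divisions of the intestinal lineage, spans chromosome V from 1567076 to 1585532 on the forward strand, and at 18457 bp it is the longest of the 9 genes. Its 4 transcripts start at the gene start and at 10615, 15703 and 16320 bp from it. The listed conservative peak had its summit at -130 bp from the second of these starts, that of F16B4.8a.1. It also lay inside intron 1 of 6 (10579 bp) of F16B4.8d, the transcript with the first start. It is called an internal promoter peak by its distance to the annotated start alone. The bases just before that start read ttttcag, as at the end of an intron, so the start may be a splice site. Whether transcription begins there was not tested. The sequence of this internal promoter peak, without the exon bases at its end, is shown with that of a second site that the full list alone held. They are the forward strand of chrV:1577423-1577690 and of chrV:1576792-1577067, from RefSeq's WBcel235, and capitals mark 21 bases centred on each summit.
cdc-25.2 internal promoter peak: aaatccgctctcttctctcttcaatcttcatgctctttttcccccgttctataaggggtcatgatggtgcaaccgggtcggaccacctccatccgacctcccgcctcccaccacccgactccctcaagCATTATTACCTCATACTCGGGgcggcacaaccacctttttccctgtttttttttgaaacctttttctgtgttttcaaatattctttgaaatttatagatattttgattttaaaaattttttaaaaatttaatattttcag
cdc-25.2 full list peak: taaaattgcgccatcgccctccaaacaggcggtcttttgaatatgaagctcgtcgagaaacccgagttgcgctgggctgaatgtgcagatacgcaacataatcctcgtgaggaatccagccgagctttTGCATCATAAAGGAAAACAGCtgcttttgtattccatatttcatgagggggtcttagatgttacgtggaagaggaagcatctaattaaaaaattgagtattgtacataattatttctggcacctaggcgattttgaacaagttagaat

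The internal promoter peak of cdc-25.2 had a signal of 80.5, rank 629 of the 814 listed conservative peaks and 860 of the candidates. Replicate 1 had a candidate of 33.2 (rank 900) with an IDR of 0.0238, and replicate 2 one of 46.1 (rank 1260) with an IDR of 0.0115. Neither replicate listed it, but both had it in the strongest 3% of candidates, at 2.33% and 2.92%, with summits 1 bp apart. Its IDR was 0.00429 in the conservative list and 0.00152 in the full list. It is thus the only promoter-window peak of the 9 genes listed in both. Among the 273 conservative promoter peaks it ranked 213. The nearest start of another protein-coding gene, F16B4.7, was 8150 bp away.

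The second site, 9854 bp from the gene start, was at -761 bp from the same internal start. The full list held it with a signal of 63.7 and an IDR of 0.00986, just inside the limit, while its conservative IDR was 0.130. It had a signal of 17.8 in replicate 1 (IDR 0.768) and of 47.6 in replicate 2 (IDR 0.0157). Just outside the limit in the conservative list were the candidates of cdc-25.2 at 8746 bp, with a signal of 56.3 and an IDR of 0.0113, and at 11787 bp, with 64.0 and 0.0123. Just inside it were those of cdk-4 (0.00809) and cyd-1 (0.00713). The signals of these sites overlapped, since the listed cyd-1 peak was weaker than the unlisted candidate at 11787 bp.

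Repeats masked in the RefSeq genome covered 36.3% of the bases within 100 bp of the listed conservative summit of cdc-25.2, against a median of 19.9% over all listed conservative peaks. Candidates were dense along the gene. Its window held 25 conservative candidates, 22 of them in introns, or 1.28 per kb, against a median of 0.639 per kb over all genes of at least 10 kb. Of the 25, 15 were overlapped by a candidate in both replicates. Its ranks of 860, 1304, 1496, 1513 and 2220 put 5 candidates into the strongest 5% of the conservative ranked list, a count reached by 6 protein-coding genes including cdc-25.2. At the first start of the gene the nearest candidate, at 222 bp, was not listed in any list. It had a conservative signal of 43.5 and an IDR of 0.772, replicate 2 had one of 39.8 there with an IDR of 0.0494, and replicate 1 had none.

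**Figure D3:**
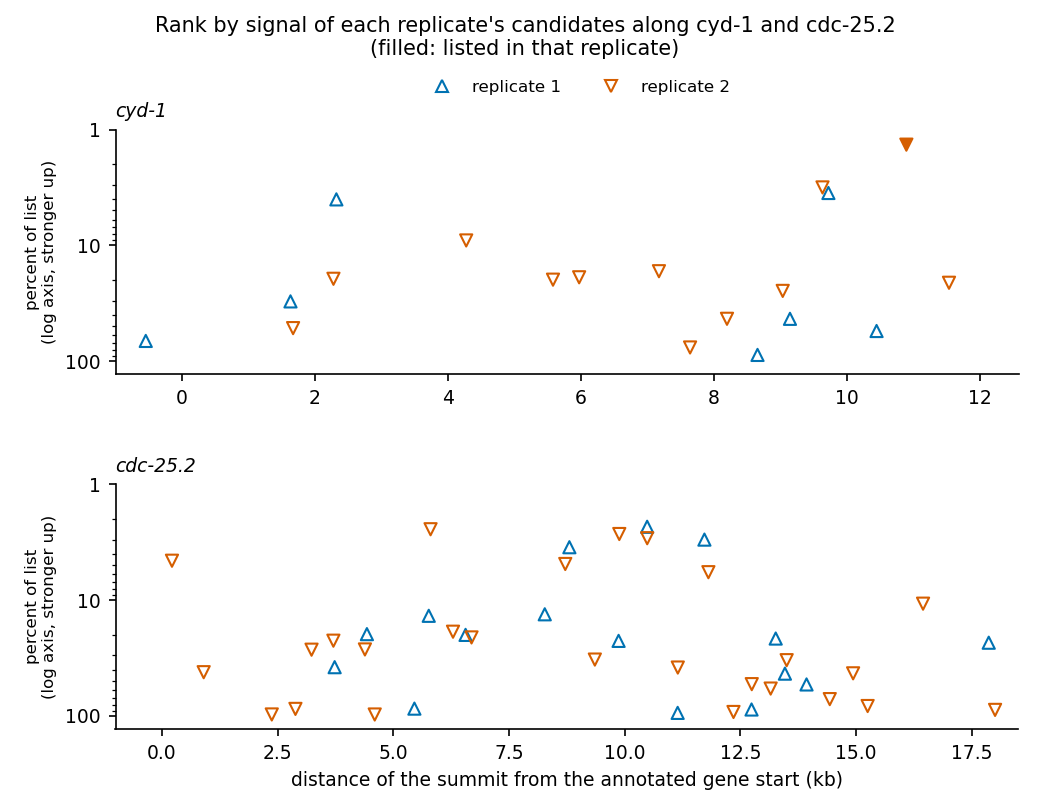
Rank by signal, as a percent of the replicate's ranked list on a log axis with stronger up, of every candidate of replicate 1 and replicate 2 along cyd-1 and cdc-25.2, by distance from the gene start in kb, with listed peaks filled. The replicates fall together near the listed conservative sites at 9590 bp of cyd-1 and 10485 bp of cdc-25.2, and the filled point of replicate 2 at 10891 bp of cyd-1 has no candidate of replicate 1 over it.

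The remaining phosphatase genes had weak candidates or none. cdc-25.1 (WBGene00000386), needed for germline proliferation and early embryonic divisions, lies on chromosome I from 6469386 to 6471922, on the reverse strand. Its 2 conservative candidates, at 1973 and 1769 bp, had signals of 29.0 (rank 21807) and 11.6, both in coding exons. The replicates had 1 candidate each there, of 9.77 in replicate 1 and 20.2 in replicate 2. No list had a candidate upstream of its start.

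cdc-25.3 (WBGene00000388), on chromosome III from 8916351 to 8917929 on the reverse strand, had conservative candidates at 1163 and 950 bp with signals of 22.8 (rank 33422) and 8.87. At its promoter the full ranked list had a candidate at -113 bp with a signal of 28.5 and an IDR of 0.556, and replicate 2 had one at -262 bp with 24.6. Replicate 1 had only 1 candidate in the window, of 9.83 at 1132 bp, so the promoter candidate was not shared by the replicates. cdc-25.4 (WBGene00000389), on chromosome II from 10188258 to 10189469 on the reverse strand, had 0 candidates in each of the 4 ranked lists. The other 8 of the 9 genes had a conservative candidate of some rank in the gene window, against 71.0% of all protein-coding genes.

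Over the 9 genes there were 61 conservative candidates, and 28 of them (45.9%) were overlapped by a candidate in both replicates. A further 7 were overlapped in replicate 1 alone, 17 in replicate 2 alone and 9 in neither. Over all 54900 candidates the share found in both replicates was 34.8%. The 25 candidates of cdc-25.2 and the 17 of cyd-1 made up most of the 61, so these shares describe chiefly those 2 genes, and at cyd-1 5 of 17 were overlapped in both replicates and at cdc-25.2 15 of 25. The median over the 8 genes of the strongest candidate's rank was 7.63% of the conservative ranked list, against 24.05% over all protein-coding genes with a candidate. It was 7.50% over 13 other genes of G1 and S phase control, none with a listed peak. Over the 5 lists of other cell cycle genes described below it was 17.66%. Since the genes were chosen on these lists and gene length was not matched, nothing is read from these medians.

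**Figure D4:**
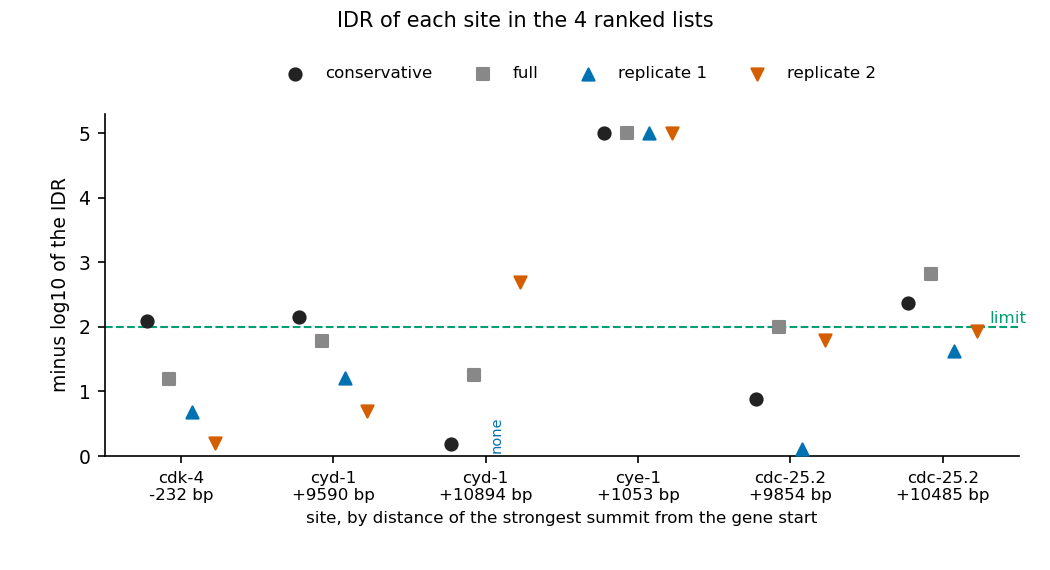
Minus log10 of the IDR at the 6 sites with a listed peak in at least 1 list, by list, with the limit of 2 as a dashed line. All 4 points of cye-1 are at 5, the cdk-4 site and the cyd-1 site at 9590 bp pass the limit only in the conservative list, and the cdc-25.2 site at 10485 bp passes it in the conservative and full lists.

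The sequences around the listed summits were searched on both strands, within 100 bp on each side, for words tied to known control elements. E2F, which with its partner DP regulates G1 genes in animals, was represented by 4 words, namely TTT followed by CC, GG, GC or CG and then CGC. The core of the tRNA B box, an element inside tRNA genes, was represented by GGTTCGA, and worm telomeric repeats by 2 consecutive copies of TTAGGC. None of these words was found at any of the listed peaks of the 9 genes, the tRNA-Cys site of cye-1 included. Among the 814 listed conservative peaks, 7.0% held an E2F-like word, 17.9% the B box core and 8.6% the telomeric repeat. Among 53944 candidates over the IDR limit and away from listed peaks the shares were 4.57%, 1.89% and 1.17%. No word contains another, and the absence of a match says only that these letters are not in these windows.

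In the promoter sequences of the genes themselves, from 500 bp upstream to 100 bp downstream of the gene start, 4 of the 9 held an E2F-like word, against 9.11% of all 19985 promoters of the same length. They were cyd-1 at -68 bp, cdk-2 at -86 bp and cdc-25.1 at -279 bp, all on the strand opposite to the gene, and cdc-25.2 at -174 bp on the same strand. None of these 4 promoters held a listed peak within that window. Over all protein-coding genes, 1.65% had a listed conservative peak in a promoter window of any annotated start. With so low a share, nothing is read from the absence at these 4. The word in cdc-25.2 belongs to the first start of the gene, more than 10 kb from the listed peak. A match of letters is not a binding site, and E2F was not measured here.

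Other cell cycle genes were at a listed peak about as often as protein-coding genes at large. Of 78 genes in 5 lists, 70 had a conservative candidate, and 3 had a listed peak in the gene window, beside 3.4% of all protein-coding genes. The lists of 13 other genes of G1 and S phase control, 11 of mitotic cyclins and their kinase and 21 of replication licensing had 0 each. Among 16 other cyclin and cyclin-dependent kinase genes 2 had one, both in the promoter window, and among 17 of the anaphase promoting complex and spindle checkpoint 1 had one. The 3 were cdk-7, whose kinase activates other cyclin-dependent kinases, cdk-11.2, of the CDK11 kinase family, and mdf-2, the worm Mad2 of the spindle checkpoint.

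The promoter-window peaks of cdk-4 and cdc-25.2, with signals of 72.9 and 80.5, were weaker than that of cdk-7, with 151.7 (rank 177 of 814). The summit of the cdk-7 peak was at -31 bp from its start, and the peak was listed in the full list and in both replicates. The peak of cdk-11.2, at -163 bp, had a signal of 76.0 (rank 687) and was listed in the full list but in neither replicate. That of mdf-2, at 1278 bp, had a signal of 121.5 (rank 290) and its summit lay inside a tRNA gene, as at cye-1. Unlike the intronic cye-1 summit, it lay in an annotated untranslated region of mdf-2. The mdf-2 peak was listed in the full list and in both replicates. The peaks of cye-1 and mdf-2, at a tRNA gene, and that of cdk-7, 18798 bp from the nearest one, were thus listed in all 4 lists.

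The genes with a conservative promoter peak whose ranks in the 2 replicates came nearest to those of each listed site were taken from 327 other genes, by the sum of the 2 absolute differences in percent rank. For the cye-1 site they were atx-2 (0.0766), the worm ataxin-2, rpl-3 (0.104), which encodes a ribosomal protein, and ears-2 (0.128), a glutamyl-tRNA synthetase. For the cdk-4 site the nearest was sup-17 (0.160), a metalloprotease of the Notch pathway. For cyd-1 they were acl-14 and ucp-4 (both 0.0407), which share a peak, and F41H10.3 (0.330). For cdc-25.2 they were C24F3.2 (0.365), Y46E12BL.2 (0.511) and lgc-47 (0.590). This likeness is over 2 samples and compares ranks only. The sites of cye-1 and cyd-1 are not in a promoter window, so they were compared with peaks of another kind.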

How the data were processed

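ChIP-seq peak lists of 2 biological replicates of 1 group, on the ce11 assembly per the labels, were used. Per the deposited readme, each replicate's ranked and thresholded lists derive from the alignments of that replicate, and the conservative and full pairs derive from both replicates together. The labels and the readme name neither the aligner nor the peak caller (not given in the sources used here). The deposited signal is the value of the authors' peak caller for each peak, never negative and of unstated scale. The deposited score is the IDR rescaled to at most 1000, and a further deposited score is minus log10 of the IDR, with 5 as its highest value. Read depth is unknown, so no interval or floor was computed.

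Every listed peak was found in its matching ranked list. Ranks are by signal within a list. Peaks were placed on WBcel235, which is ce11, with the annotation of Ensembl release 115, and tRNA products and sequences came from RefSeq's annotation and genome of that assembly. Overlap meant at least 1 bp, and a summit within 200 bp of a tRNA gene counted as at it. Annotated worm starts are often trans-splice sites, so distances are to the annotated end.

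The genes, the 5 cell cycle lists, the words and the windows were chosen with earlier results of these data known, and no test was made. Besides the 9 genes, the text names list genes with a listed peak, RNA genes within 200 bp of a listed summit, the nearest other gene, and the 3 genes nearest in replicate ranks (ties included). For cdk-4 only the nearest of these is given, and the others are not reported here. The other tRNA-Cys copies were named after their values were seen. Alternatives were other lists, single replicates, a stricter signal limit, the IDR limit alone, other overlap rules and other windows. The window search was tested on simulated data: 200 of 200 genes planted among 19973 were recovered. The computing was done in Python 3.11.15, with pandas 2.3.3, numpy 2.4.6 and matplotlib 3.10.9.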

Additional observations from a re-analysis of the deposited data

How the results depend on the processing

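With the full list, 2 of the 9 genes had a listed peak in the gene window and 1 in the promoter window, in place of 4 and 2. In the stronger part of the conservative list by signal, 1 had a listed peak in the gene window (cye-1), 0 had one in the promoter window, and 1.81% of all protein-coding genes had one in place of 3.4%. With a promoter window of 200 bp upstream, 1 gene (cdc-25.2) had a promoter peak. With either replicate left out, so that the list of the other stood alone, between 1 and 2 genes had a peak in the gene window, 0 had one in the promoter window, and between 2.12% and 3.24% of all genes had one. Taking ranked peaks by the IDR limit alone, other overlap rules, and gene windows of 500 or 2000 bp upstream left 4 genes in the gene window. The tRNA site of cye-1 was counted under every alternative run for it. In all, 20 of 53 values moved. No paired analysis was possible because the samples form 1 group and no test was made. The number of replicates, 2, and the unknown depth limit what the absence of a listed peak can show, and the listed conservative peaks of cdk-4, cyd-1 and cdc-25.2 were listed in neither replicate alone, while replicate 2 listed a different site in cyd-1.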
